A study of Mus musculus with 4 samples.

Results

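The 38 genes described here encode the NF-kB transcription factors, the proteins that hold them back or release them, the receptors that feed the pathway, and the secreted cytokines, chemokines, proteases and IGF-binding proteins that inflamed or senescent cells release. They were taken as a given list, 38 of 21851 protein-coding genes of the GENCODE M21 annotation of mm10, and all 38 were found there by symbol. By role they comprised 5 NF-kB subunits, 4 inhibitors, 5 kinases and adaptors, 5 receptors, 12 cytokines and chemokines, and 7 matrix and IGF-binding genes. For each gene and each library, the question was whether a listed RNA polymerase II (Pol II) peak overlapped the promoter, meaning within 1500 bp of a transcription start site (TSS) of a protein-coding transcript, or the gene body outside those windows.

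Pol II chromatin immunoprecipitation sequencing had been carried out on flow-sorted brain endothelial cells (ECs) from 2 groups of mice, with 2 libraries in each. The libraries are called Old1 and Old2 (replicates 1 and 2 of old WT Cre) and Young1 and Young2 (replicates 1 and 2 of young EC-K4KO). The old WT Cre group carried the endothelial Cdh5-Cre driver and was labelled old. The young EC-K4KO group, labelled young, lacked the transcription factor gene Klf4 in ECs through tamoxifen-induced Cdh5-CreERT2 recombination of a floxed Klf4 allele. Mice were on the C57BL/6J background, and both groups were given tamoxifen alike. Cre under the Cdh5 promoter acts in ECs of all organs, so loss of Klf4 was not limited to the brain. Genotype and age changed together between the groups and cannot be told apart, and the labels do not say whether replicates came from separate animals or pools.

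NF-kB dimers are held in the cytoplasm by IkB proteins. Signals from TNF, IL-1 and Toll-like receptors pass through adaptors to the IkB kinase complex, IkB is degraded, and the dimers enter the nucleus and switch on cytokine, chemokine and adhesion genes together with their own inhibitors. In ECs this program recruits leukocytes to the vessel wall, and an overlapping set of secreted factors is released by senescent cells. Many of these genes are short, and Pol II at their starts can be paused or elongating, which a peak list does not separate.

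Promoter sequences of 29 of the 38 genes were found in a RefSeq table of promoters (build GRCm38.p6), and those of 6 genes are shown because the results turn on them or because they mark a contrast. Each run is the 250 bases before the RefSeq start, read 5′ to 3′ along the gene. In the first 5, capitals mark letters that match the NF-kB consensus on either strand. Cxcl1, Cxcl2 and Csf1 had promoter peaks in both old WT Cre libraries, Nfkbia had one in Young2 alone, and Cxcl10 had none. Cxcl1 and Cxcl2 lie beside each other on chromosome 5 and hold the same matching run, GGGAATTTCCC, 71 to 61 bases before the start of Cxcl1 and 97 to 87 bases before that of Cxcl2. Igfbp7, the gene of the list with promoter peaks in all 4 libraries, had no such match, and capitals there mark its 4 GC boxes (GGGCGG on either strand).
Cxcl1 (chr5:90890995-90891244, plus strand): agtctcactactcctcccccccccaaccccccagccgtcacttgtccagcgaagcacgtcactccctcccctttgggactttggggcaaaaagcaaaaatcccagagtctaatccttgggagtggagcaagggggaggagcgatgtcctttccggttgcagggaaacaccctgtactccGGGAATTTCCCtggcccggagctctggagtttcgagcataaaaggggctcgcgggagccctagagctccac
Cxcl2 (chr5:90903649-90903898, plus strand): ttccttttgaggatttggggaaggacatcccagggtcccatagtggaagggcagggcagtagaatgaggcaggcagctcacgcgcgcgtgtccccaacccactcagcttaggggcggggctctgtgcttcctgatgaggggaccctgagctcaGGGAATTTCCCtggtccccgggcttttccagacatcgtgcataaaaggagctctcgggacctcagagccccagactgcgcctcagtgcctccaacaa
Csf1 (chr3:107760470-107760719, minus strand): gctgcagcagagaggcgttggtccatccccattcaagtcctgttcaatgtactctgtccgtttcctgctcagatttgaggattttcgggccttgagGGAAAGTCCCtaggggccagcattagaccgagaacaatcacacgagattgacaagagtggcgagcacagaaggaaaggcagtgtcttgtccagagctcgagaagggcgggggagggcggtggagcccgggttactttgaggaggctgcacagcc
Nfkbia (chr12:55492648-55492897, minus strand): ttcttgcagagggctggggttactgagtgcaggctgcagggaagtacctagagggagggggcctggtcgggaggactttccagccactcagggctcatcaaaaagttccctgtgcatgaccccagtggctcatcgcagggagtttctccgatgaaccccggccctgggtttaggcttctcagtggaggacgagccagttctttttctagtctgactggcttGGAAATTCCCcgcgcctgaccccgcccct
Cxcl10 (chr5:92348890-92349139, minus strand): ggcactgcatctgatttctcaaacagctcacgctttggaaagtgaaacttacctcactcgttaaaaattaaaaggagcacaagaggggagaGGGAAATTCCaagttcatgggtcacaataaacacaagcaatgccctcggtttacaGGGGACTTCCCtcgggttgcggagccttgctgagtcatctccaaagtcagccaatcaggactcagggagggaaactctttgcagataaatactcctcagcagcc
Igfbp7 (chr5:77408046-77408295, minus strand): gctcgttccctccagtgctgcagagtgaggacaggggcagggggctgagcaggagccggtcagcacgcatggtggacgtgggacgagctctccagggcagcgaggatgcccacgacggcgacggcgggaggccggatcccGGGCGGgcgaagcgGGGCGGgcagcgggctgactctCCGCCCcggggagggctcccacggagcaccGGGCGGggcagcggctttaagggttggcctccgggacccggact

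Among the 29 genes with a sequence, the NF-kB consensus was matched on either strand in the 300-base window of 10 (34.5%), namely Nfkb2, Rel, Nfkbia, Nfkbie, Tnfaip3, Il6, Cxcl1, Cxcl2, Cxcl10 and Csf1, and in 9.14% of 16515 protein-coding promoters. The AP-1 site TGANTCA was present in 6 of the 29 (20.7%, against 6.99% of all promoters), the TATA box TATAAA in 7 (24.1% against 12.9%), the GC box GGGCGG in 17 (58.6% against 48.2%) and the ETS site CCGGAAG in 3 (10.3% against 12.3%). Of the 10 genes with the NF-kB letters, 4 had a promoter peak in 3 libraries (Rel, Cxcl1, Cxcl2 and Csf1), 3 in 2 (Nfkb2, Nfkbie and Tnfaip3), 2 in 1 (Nfkbia and Il6) and 1, Cxcl10, in none. Of the 19 without them, Igfbp7 had one in 4 libraries, Il1r1 and Il6st in 3, 5 genes in 2, 8 in 1 and 3 in none. A peak in at least 3 libraries was found at 13.1% of all genes, and no relation between the letters and the peaks was tested. These matches describe letters in a window and not binding, and they cover the matched genes only, since 76.3% of the list had a sequence. The list was chosen by pathway and holds genes that NF-kB switches on. Its higher share of NF-kB letters may follow from that choice and is no finding about the list. Nfkb1, Relb, Ikbkb, Ccl2, Ccl5, Ccl7, Csf3, Mmp9 and Tlr4 were not matched.

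The 4 libraries differed widely before any gene was considered. The peak caller counted 22705175 to 65734178 fragments per library and listed 35638 to 235591 peaks, with the most peaks in Young2, the library with the fewest fragments. Pileups were scaled to fragments at the summit per 1000000 fragments of the library (scaled pileup), and the lowest of any listed peak was 0.198 to 0.308, so an unlisted promoter was one below that level or not above its local background, not one shown to be free of Pol II. The pileup of the tallest peak equalled 14.6% of all fragments in Old1, 15.3% in Old2, 3.36% in Young1 and 1.73% in Young2. Of 12 endothelial marker genes, 3, 5, 0 and 7 had a promoter peak in Old1, Old2, Young1 and Young2, and Pecam1, Tek, Tie1, Esam and Slco1a4 had none in any library. These were 25.0, 41.7, 0 and 58.3% of the list, against 25.6, 24.5, 10.6 and 67.5% of all genes. Gene-body peaks were listed at 10, 6, 7 and 8 of the 11 endothelial markers with a body outside the promoter windows (90.9, 54.5, 63.6 and 72.7%), against 50.3, 35.4, 27.8 and 74.3% of all genes with a body. Among 8 microglia and macrophage markers the promoter counts were 3, 0, 0 and 4, among 6 pericyte and smooth muscle markers 2, 0, 1 and 4, among 5 astrocyte markers 2, 0, 1 and 2, among 6 neuronal markers 0, 1, 1 and 4, and among 5 oligodendrocyte markers 0, 1, 0 and 4. Body peaks lay in 4, 2, 2 and 6 of the microglia and macrophage markers, 3, 3, 1 and 5 of those of pericytes and smooth muscle, 4, 2, 2 and 5 of those of astrocytes, 4, 4, 3 and 6 of those of neurons and 2, 2, 0 and 5 of those of oligodendrocytes. For astrocytes and neurons, these shares too were above those of all genes in each library. Those of pericytes and smooth muscle and of oligodendrocytes were above in Old2 and Young2 only, and those of microglia and macrophages in Young2 only. The neuronal share in Old2 was 66.7%, and in Young2 all of these lists exceeded the endothelial share. High body shares were thus not limited to endothelial markers, and gene lengths were not matched in these lists. Young2 had the highest promoter count in each of these lists, with Old1 equal to it for astrocytes, and the part of other cell types in the counts below was not tested. Klf4, the targeted gene, had a promoter peak in Young1 and Young2 but not in Old1 or Old2, and a peak in the gene body in Old1 and Young2. Whether these peaks lie in the part removed by recombination is not given in the sources used here, so they do not check the genotype.

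Promoter peaks covered about as large a share of the 38 genes as of all genes in 3 of the libraries and a larger share in the fourth. In Old1, 10 of the 38 genes (26.3%) had a promoter peak, beside 25.6% of all protein-coding genes. In Old2 the count was again 10 (26.3%, against 24.5%), and in Young1 it was 5 (13.2%, against 10.6%). In Young2, 34 genes (89.5%) had one, against 67.5% of all genes. Among the 200 genes nearest in length to each member, the mean shares were 24.3, 22.3, 9.93 and 67.7% in the same order of libraries, so the shares of the list were 2.0, 4.0, 3.2 and 21.8 percentage points higher. Compared with all genes, the difference depended on the settings. Over the reported setting and 7 alternatives it ran from -2.3 to 8.0 points in Old1, from -4.3 to 3.9 in Old2, from 2.6 to 5.7 in Young1 and from 12.6 to 27.9 in Young2, with the highest values in Old1, Young1 and Young2 at a window of 500 bp. Old2 fell below all genes at a fold enrichment of at least 4 (18.4% against 21.4%), with lists of equal length (18.4% against 22.7%) and with the summit required inside the window (23.7% against 24.1%), and Old1 did with a window of 3000 bp (31.6% against 33.9%). In Young2 the count dropped to 17 with lists of equal length (44.7%, against 27.7% of all genes). No test was run over the 38 genes, because they are not replicates.

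**Figure D1:**
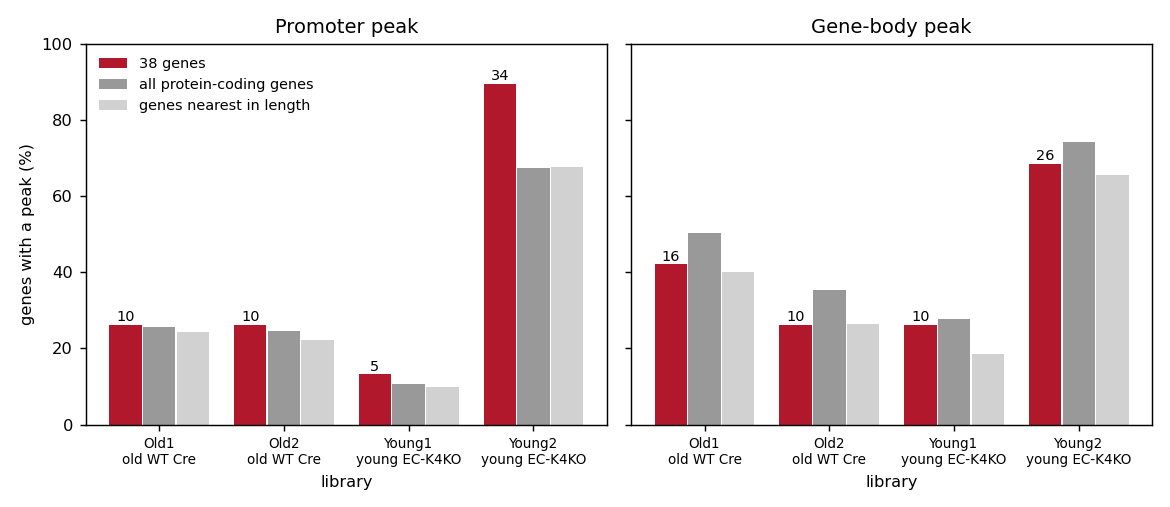
Share of genes (%) with a Pol II peak in the promoter window (left) and in the gene body (right), by library; red bars give the 38 genes with their number above, dark grey bars all protein-coding genes, and light grey bars the mean share among the 200 genes nearest in length to each member. In the left panel the red bar reaches 89.5% in Young2 against 67.5% of all genes, and in the other libraries it lies between 13.2 and 26.3%.

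In gene bodies the share of marked genes was lower in the list than over all genes, while the density of peaks was higher in 3 of 4 libraries. Body peaks lay in 16, 10, 10 and 26 of the 38 genes (42.1, 26.3, 26.3 and 68.4%) in Old1, Old2, Young1 and Young2. Over all genes with a body outside the promoter windows the shares were higher in each library, at 50.3, 35.4, 27.8 and 74.3%. Against the genes nearest in length, where the mean shares were 40.2, 26.4, 18.6 and 65.6%, the list was within 3 percentage points in 3 libraries and 7.7 points higher in Young1. The counts depended on the settings. With q limited to 1e-05 or lower, Young1 kept 1 gene (2.63%, against 12.1% of all genes). With lists of equal length, Young2 kept 10 (26.3%, against 32.1%). With promoter windows counted as part of the gene, the list stayed below all genes in Old1 (19 of 38 genes, against 54.9%) and Old2 (39.5% against 44.4%) but lay above them in Young1 (31.6% against 31.0%) and Young2 (89.5% against 82.9%). Pooled over the bodies of the list, the density was 0.446, 0.136, 0.161 and 1.20 peaks per 10 kb, beside 0.338, 0.156, 0.125 and 0.989 over all genes, so it was lower than over all genes in Old2 only.

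How many libraries marked a promoter varied greatly between members. Igfbp7 alone had a promoter peak in all 4 libraries (2.63% of the list, against 2.22% of all genes). Rel, Ikbkb, Il1r1, Il6st, Cxcl1, Cxcl2 and Csf1 had one in 3, so that 8 of the 38 (21.1%) were marked in at least 3 libraries, against 13.1% of all genes. A further 8 were marked in exactly 2 libraries (21.1% against 25.2%), and 18 in Young2 alone (47.4% against 30.6%). No gene of the list was marked by Old1 alone, Old2 alone or Young1 alone, which held for 3.01, 1.74 and 0.934% of all genes. Traf2, Il1a, Cxcl10 and Mmp3 had no promoter peak in any library (10.5%, against 25.4%).

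Within groups, 7 genes had a promoter peak in both old WT Cre libraries (18.4%, against 10.1% of all genes): Rel, Ikbkb, Il1r1, Cxcl1, Cxcl2, Csf1 and Igfbp7. In both young EC-K4KO libraries there were 5 (13.2%, against 9.13%): Nfkb2, Tnfaip3, Il6st, Igfbp3 and Igfbp7. With the peaks of a group required to overlap, 4 genes were left in old WT Cre (10.5%, against 6.11%). In young EC-K4KO all 5 were left (13.2%, against 6.06%). Nfkb2, Tnfaip3 and Igfbp3 were marked in Young1 and Young2 but not in Old1 or Old2 (7.89% against 3.10%). The converse pattern was met by 0 genes of the list and by 0.787% of all genes. That count of 0 rested on Young2, since without this library 6 genes (15.8%, against 7.80% of all genes), Rel, Ikbkb, Il1r1, Cxcl1, Cxcl2 and Csf1, were marked in both old WT Cre libraries and not in the remaining young one. The number marked in young EC-K4KO alone rose from 3 to 21 without Young1 (55.3%, against 33.7% of all genes). Nfkb2 left these 3 genes at a fold enrichment of at least 4, Igfbp3 left them when every list was limited to the length of the shortest, and Tnfaip3 alone stayed with q limited to 1e-05 or lower.

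**Figure D2:**
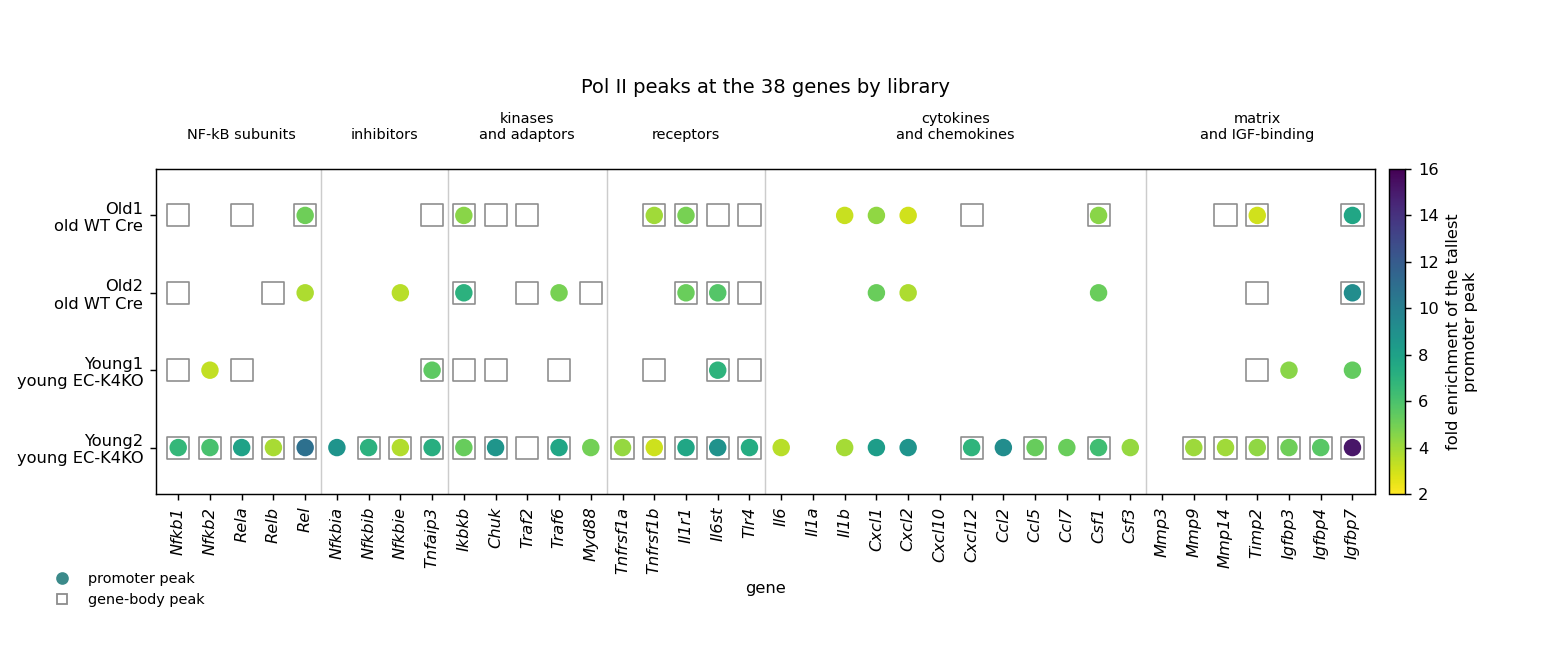
Pol II peaks at the 38 genes (columns, by role) in the 4 libraries (rows); filled circles are promoter peaks coloured by the fold enrichment of the tallest one, open squares are gene-body peaks, and an empty cell holds no listed peak. Igfbp7 is filled in all 4 rows with its highest value, 15.2, in Young2, while the columns of Il1a, Cxcl10 and Mmp3 are empty.

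The counts by role stand beside shares over all genes of 25.6, 24.5, 10.6 and 67.5% in Old1, Old2, Young1 and Young2, and with 4 to 12 genes a role they are given as a description. The NF-kB subunits had promoter peaks at 1, 1, 1 and 5 of 5 genes in this order, and only Rel, which encodes c-Rel, was marked in more than 2 libraries. The tallest promoter peak at Rel reached 26 fragments at its summit in Old1 (a fold enrichment of 5.07 over background near the peak in that library), 9 in Old2 (3.73) and 26 in Young2 (10.9). Young1 listed none there. These lay in 2 regions. Those of Old2 and Young2 overlapped, with summits at 113 and 105 bp from the start, in a region that holds coding exon. That of Old1 had its summit upstream, at -265 bp, and overlapped a second, lower promoter peak of Young2 with 12 fragments (5.26) and its summit at -440 bp. Nfkb2, the precursor subunit of the noncanonical pathway, had its tallest promoter peaks in Young1 at 17 fragments (3.26) and in Young2 at 38 fragments (6.07), and none in Old1 or Old2. The peak of 38 fragments belonged to a later start of the gene, and the peak that overlapped that of Young1 had 21 fragments (3.56). Nfkb1, Rela and Relb were marked in Young2 alone, with fold enrichments of 6.68, 7.94 and 3.82, although the body of Nfkb1, the longest of the list, held 7, 1, 2 and 14 peaks over the 4 libraries. With a window of 3000 bp, Nfkb1 and Rela joined the genes marked in both young EC-K4KO libraries alone.

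Promoters of the inhibitors were marked at 0, 1, 1 and 4 of 4 genes in the same order. Tnfaip3, whose product removes activating ubiquitin chains from the pathway's signalling proteins, stood with the 3 genes marked in both young EC-K4KO libraries only. Its tallest promoter peaks had 20 fragments (5.49) in Young1 and 23 fragments (7.21) in Young2, with summits at -89 and -22 bp from the nearest start, and they overlapped. No promoter peak was listed in Old1 or Old2. Old1 did list 2 peaks in the body of Tnfaip3, so the gene was not empty in that library, while Old2 listed none there. Nfkbie had a promoter peak in Old2 (3.48) and Young2 (3.61), and the classical IkB genes Nfkbia and Nfkbib in Young2 alone (8.76 and 7.05). The Nfkbib peak also lay within 1500 bp of a coding start of Sirt2 and cannot be assigned to one of the 2 genes.

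Kinase and adaptor promoters were marked at 1, 2, 0 and 4 of 5 genes. Ikbkb, the catalytic kinase of the canonical pathway, was the kinase or adaptor marked most often. Its promoter peak had 23 fragments (4.49) in Old1, 19 (7.07) in Old2 and 15 (5.27) in Young2, and none was listed in Young1. All 3 overlapped in the region chr8:22706335-22706751 of mm10, which covers the start of the gene. Its scaled pileup was 0.350, 0.692 and 0.661, so on this scale Old2 and Young2 were near each other and Old1 lower. The median over all marked genes was 0.319, 0.473 and 0.837 in these libraries. Ikbkb was thus above that median in Old1 and Old2 and below it in Young2. When every list was limited to its 35638 leading peaks, Ikbkb lost its peak in Young2 and became the 1 gene marked in both old WT Cre libraries only. Traf6, the adaptor of IL-1 and Toll-like receptors, had peaks in Old2 (4.85) and Young2 (7.71). Chuk, the second IkB kinase, and Myd88 were marked in Young2 alone (8.70 and 4.97), the Myd88 peak lying within 1500 bp of a start of Acaa1a too. Traf2 had no promoter peak but 1, 1, 0 and 5 body peaks.

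For the receptors the counts were 2, 2, 1 and 5 of 5 genes. Il1r1 and Il6st, the signalling chains of the IL-1 and IL-6 receptor families, were the receptors marked in 3 libraries. At Il6st the tallest promoter peak had 15 fragments (5.77) in Old2, 24 (6.95) in Young1 and 25 (8.84) in Young2, and none was listed in Old1. The 3 tallest summits lay close together, at -333, -309 and -319 bp from the start. At Il1r1 the peaks had 25 fragments (4.88) in Old1, 13 (5.22) in Old2 and 25 (7.71) in Young2, and none was listed in Young1. Old1 and Young2 marked an internal start of Il1r1, with overlapping peaks in chr1:40266479-40266878, whereas the summit of Old2 lay at -1619 bp from the first start and outside the window, so the pair did not share a position. Both old WT Cre libraries also had an overlapping peak in an intron of Il1r1, chr1:40250955-40251237, with fold enrichments of 9.77 and 7.83 and no counterpart in the young EC-K4KO libraries. Tnfrsf1b was marked in Old1 (4.0) and Young2 (3.07) at separate positions, and the promoters of Tnfrsf1a and Tlr4 in Young2 alone (4.21 and 7.40).

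The cytokines and chemokines, the secreted output of the pathway, had promoter peaks at 4, 3, 0 and 10 of 12 genes in Old1, Old2, Young1 and Young2. Cxcl1, a neutrophil-attracting chemokine, had a promoter peak of 22 fragments (4.32) in Old1, 13 (5.22) in Old2 and 18 (8.27) in Young2. In Young1 none was listed. The 3 peaks of Cxcl1 overlapped over 185 bases that begin 88 bp downstream of the annotated start and hold coding exon on either side of an intron. The summits were spread over 251 bp, at 391 bp from the start in Old1, 140 bp in Old2 and 369 bp in Young2, so only that of Old2 lay within these bases. The run is printed as the overlap of the 3 peaks, downstream of the NF-kB letters given above, and not as the place of the highest signal.
Cxcl1 shared stretch (chr5:90891329-90891513, plus strand): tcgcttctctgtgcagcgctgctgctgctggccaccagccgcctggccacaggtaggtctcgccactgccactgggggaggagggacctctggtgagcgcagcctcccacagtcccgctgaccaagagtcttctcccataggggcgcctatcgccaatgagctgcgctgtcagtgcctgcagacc

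Cxcl2, a close relative of Cxcl1, had peaks of 15 fragments (3.0) in Old1, 9 (3.73) in Old2 and 24 (8.73) in Young2. Young1 listed none at Cxcl2. Its peaks in Old1 and Young2 lay 120 and 147 bp downstream of a start and overlapped, and that of Old2 lay at -906 bp and overlapped neither. Csf1, the growth factor of macrophages and microglia, had its tallest promoter peak at 25 fragments (4.50) in Old1, 13 (5.22) in Old2 and 25 (6.31) in Young2. Once more Young1 listed none. All 3 Csf1 peaks overlapped in chr3:107759812-107760532, which covers the start of the gene and coding exon. Il1b was marked in Old1 (3.19) and Young2 (3.86) at separate positions. Il6, Cxcl12, Ccl2, Ccl5, Ccl7 and Csf3 were marked in Young2 alone, with fold enrichments from 3.48 at Il6, whose 7 fragments were the lowest pileup that library listed, to 9.19 at Ccl2. The summit of that Ccl2 peak lay at -1581 bp from the start. Il1a and Cxcl10 had no peak, in the promoter or the body, in any library.

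The matrix and IGF-binding genes had promoter peaks at 2, 1, 2 and 6 of 7 genes. Igfbp7, a secreted IGF-binding protein of the vascular basement membrane, held the 1 promoter region of the list that was covered by a peak in all 4 libraries. Its tallest promoter peak had 40 fragments (7.70) in Old1, 24 (9.21) in Old2, 18 (5.34) in Young1 and 40 (15.2) in Young2. The 4 summits lay 490 to 572 bp downstream of the nearest start, within 82 bp of each other. A second promoter region of Igfbp7, chr5:77407900-77408257, lay at the start itself and was covered by overlapping lower peaks of Old1 (2.82) and Old2 (4.06), with none listed there in Young1 or Young2. In the first region the scaled pileups were 0.609 in Old1, 0.874 in Old2, 0.511 in Young1 and 1.76 in Young2, so the young EC-K4KO libraries lay on either side of both old ones. The log2 difference of young EC-K4KO minus old WT Cre was 0.38 (p = 1.0000 by two-sided exact permutation of the libraries, for which the smallest p attainable is 0.3333). It changed to -0.21 when each library was scaled to its median promoter pileup. Over the 486 genes with a promoter peak in all 4 libraries, 2.47% had a higher scaled pileup in both old WT Cre libraries than in both young ones and 19.5% a lower one, and the median log2 difference was 0.57.

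The 4 Igfbp7 peaks had 178 bases in common, 463 to 640 bp downstream of the annotated start. The first 39 of these bases belong to coding exon and the rest to the intron after it, with no UTR. The run has a GC content of 67.4% and 1 GC box, in capitals, and is printed as the stretch of the list on which all libraries placed Pol II.
Igfbp7 shared stretch (chr5:77407401-77407578, minus strand): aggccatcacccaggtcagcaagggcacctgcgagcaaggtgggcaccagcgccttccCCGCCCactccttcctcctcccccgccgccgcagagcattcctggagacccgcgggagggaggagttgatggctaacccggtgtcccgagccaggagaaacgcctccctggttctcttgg

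Igfbp3, which binds IGFs in the circulation and tissue, was the third gene marked in both young EC-K4KO libraries alone. Its peaks had 16 fragments (4.47) in Young1 and 15 (5.08) in Young2, with summits at -96 and -64 bp from a start, and no promoter peak was listed in Old1 or Old2. These were scaled pileups of 0.454 and 0.661. The lowest listed pileups anywhere were 0.198 in Old1 and 0.291 in Old2. They set no detection limit at Igfbp3, since a call also depends on local background. Timp2, an inhibitor of matrix metalloproteinases, was marked in Old1 (3.02) and Young2 (4.31) at separate positions. The metalloproteinase genes Mmp9 and Mmp14 and the IGF-binding gene Igfbp4 had promoter peaks in Young2 alone (4.05, 4.02 and 5.63), and Mmp3 had no peak of either kind.

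**Figure D3:**
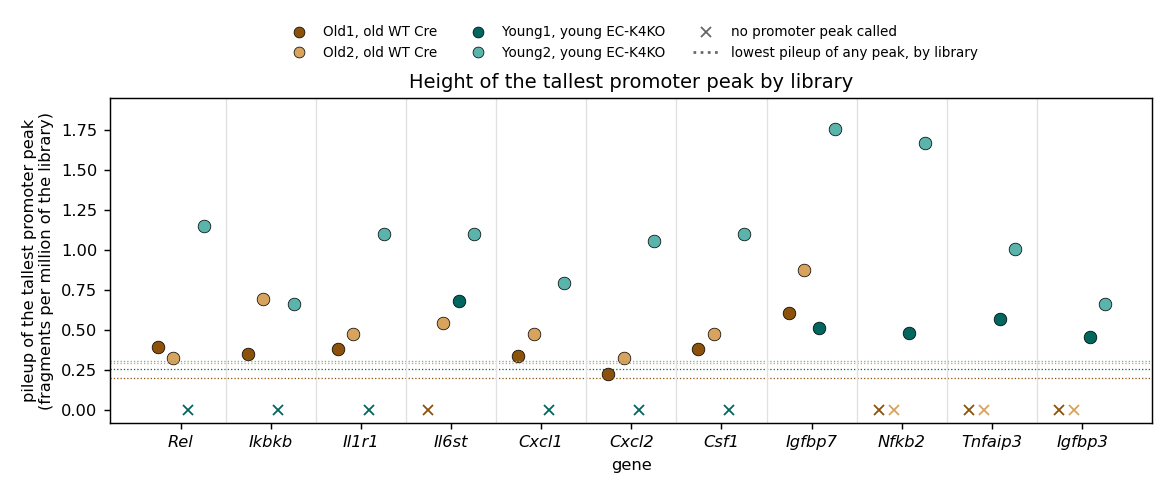
Scaled pileup of the tallest promoter peak (fragments at the summit per 1000000 of the library) for the 8 genes with a promoter peak in at least 3 libraries and the 3 genes marked in both young EC-K4KO libraries alone. Circles are libraries, crosses on the zero line mark libraries with no listed promoter peak (not a measured zero), and dotted lines give the lowest pileup of any listed peak in each library. Among listed peaks Young2 is highest at 10 of the 11 genes, Ikbkb being the exception, with 0.692 in Old2 against 0.661. At the 3 genes marked in young EC-K4KO alone, Young2 can be compared with Young1 only. Young2 also had the highest median over all marked protein-coding genes, 0.837 against 0.319 in Old1, 0.473 in Old2 and 0.397 in Young1.

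By fold enrichment, promoter peaks of the list were somewhat higher at the median than those of all genes in each library, with no test of the difference. By scaled pileup the medians were equal in Old2, at 0.473. The median fold enrichment of the tallest promoter peak was 4.40, 5.22, 5.34 and 6.19 over the marked members and 3.94, 5.0, 4.16 and 5.80 over all marked genes, in Old1, Old2, Young1 and Young2. The highest values over all genes were 37.5 to 48.4, far above the 15.2 of Igfbp7. Summits of these peaks lay within 500 bp of a start at 10 of 10, 7 of 10, 4 of 5 and 26 of 34 marked members, against 59.6, 72.2, 61.6 and 67.6% of all marked genes. Downstream summits were in the majority in Old1 (60.0%), Old2 (70.0%) and Young2 (67.6%), as they were over all genes. In Young1 they were not, at 2 of 5 marked members (40.0%, against 56.2% of all marked genes).

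**Figure D4:**
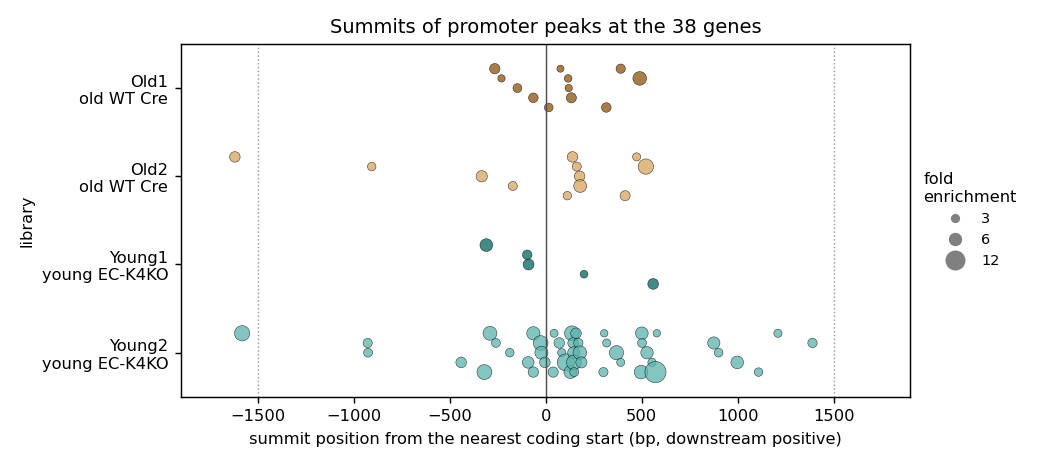
Position of every promoter peak summit at the 38 genes relative to the nearest coding start (bp, downstream positive), by library; circle area grows with fold enrichment, dotted lines bound the 1500 bp windows, and vertical offsets within a row only separate points. Most summits lie within 500 bp of a start, and 2 lie outside the windows, at -1619 bp for Il1r1 in Old2 and -1581 bp for Ccl2 in Young2.

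Overlap of peaks between libraries was counted by position. In the promoter windows, 10 regions were covered by overlapping peaks of 2 libraries, 4 by those of 3 (at Ikbkb, Il6st, Cxcl1 and Csf1) and 1 by those of 4 (at Igfbp7). Such a region of at least 2 libraries was held by 13 genes (34.2%, against 28.8% of all genes and 26.6% of those nearest in length), and one of at least 3 by 5 genes (13.2%, against 7.65 and 7.21%). In gene bodies 14 regions were covered by 2 libraries, 2 by 3 and 0 by 4. Regions of at least 2 libraries lay in the bodies of 11 genes (28.9%, against 32.6% of all genes with a body and 23.8% of those nearest in length), and regions of at least 3 in 2 (5.26%, against 8.31 and 4.39%). One of these 2 lies in an intron of Tlr4, the receptor for bacterial lipopolysaccharide, at chr4:66904184-66904674, with fold enrichments of 10.3 and 5.97 in Old1 and Old2 and 11.4 in Young2, and summits within 36 bp. By fold enrichment this intronic peak of Tlr4 exceeded every promoter peak of the list in Old1. The other lies in Il6st at chr13:112481578-112482116, with fold enrichments of 3.38, 4.47 and 4.42 in Old1, Old2 and Young1. Body peaks were present in all 4 libraries at Nfkb1, Ikbkb, Il6st, Timp2 and Tlr4, 5 of the 38 genes, all at least 46017 bp long. That was 13.2% of the list, against 17.0% of all genes with a body but 9.11% of the genes nearest in length, so the direction depended on the comparison. No body peak was listed in any library at 11 genes (28.9%, against 21.0% of all genes with a body and 28.9% of those nearest in length), and neither kind of peak at 3, Il1a, Cxcl10 and Mmp3 (7.89%, against 9.13% of all genes with a body and 11.2% of those nearest in length).

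Other genes of the pathway were counted in the same way. Of 54 further receptors, adaptors, kinases, inhibitors and secreted factors, 14, 10, 8 and 42 had a promoter peak in Old1, Old2, Young1 and Young2, and 24, 14, 13 and 40 had a body peak. The promoter shares of these genes were 25.9, 18.5, 14.8 and 77.8%, against 25.6, 24.5, 10.6 and 67.5% of all genes. Their body shares were 44.4, 25.9, 24.1 and 74.1%, against 50.3, 35.4, 27.8 and 74.3% of all genes with a body. Both old WT Cre libraries marked 4 of these promoters (7.41%, against 10.1% of all genes) and both young EC-K4KO libraries 6 (11.1%, against 9.13%). Tnip1, whose product works with that of Tnfaip3, was the 1 gene of the 54 marked in all 4 libraries, and 9 were marked in none. Over all genes these shares were 2.22 and 25.4%.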

How the data were processed

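Pol II ChIP-seq peak lists of 4 libraries were used. According to the study's methods, reads from micrococcal nuclease-digested chromatin were trimmed, aligned to mm10 with Bowtie2, freed of duplicates and passed to MACS2. The peak table headers name MACS 2.2.7.1, a q cutoff of 0.01 and no control library. For each peak the authors deposited a pileup, which is a signal of coverage counted in fragments, a fold enrichment, which is a ratio to the library's own local background, and the p-value and q-value as −log10. None of these was normalized between libraries. The deposited narrow peak and summit files repeat the same peaks and were not used.

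Peaks were joined to GENCODE M21 basic starts of protein-coding transcripts, without mitochondrial genes, by an overlap of at least 1 bp, using pandas 2.3.3 and numpy 2.4.6 under Python 3.11.15. Length-standardised shares are means over members of the share among the 200 genes nearest in length. Pileups per 1000000 fragments were compared by a two-sided exact permutation test over the 4 libraries; nothing else was tested. The overlap steps were tested on simulated peaks. Base composition over the list was void, since 76.3% of the members had a promoter sequence and 80% were required. The members and lists were chosen with earlier results of these data known. Every library's value is given for members marked in at least 3 libraries, or in both libraries of 1 group alone; the others are given by counts or fold enrichments. Alternatives changed the q, a fold enrichment minimum of 4, list length, starts, windows of 500 and 3000 bp, summits, shared overlap, the body, the scaling and each replicate.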

Additional observations from a re-analysis of the deposited data

How the results depend on the processing

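No paired analysis was possible because counts from peak lists involve no fit, and replicate numbers do not tie old animals to young ones. Of 93 values under an alternative, 73 stayed within 1.5 times the reported count, 19 moved and 1 changed direction, and no cause was tested. Shares over all genes stand in brackets. With q limited to 1e-05 or lower, promoter peaks were left at 6 genes in Old2 (13.4%) and 3 in Young1 (3.33%), body peaks at 5 (23.0%) and 1 (12.1%) in the same libraries, 3 genes were marked in both young EC-K4KO libraries (2.64%), and 1, Tnfaip3, in those alone (1.21%). With a fold enrichment of at least 4, body peaks were left at 9 genes in Old1 (31.9%) and 5 in Young1 (19.2%). Lists of equal length gave promoter peaks at 6 genes in Old1 (11.8%) and 17 in Young2 (27.7%), body peaks at 10 genes in Old1 (32.9%) and 10 in Young2 (32.1%), and 1 gene, Ikbkb, marked in both old WT Cre libraries alone (1.79%). A window of 3000 bp gave 5 genes marked in both young EC-K4KO libraries alone (3.77%). Promoter peaks of the old WT Cre libraries overlapped each other at 4 genes (6.11%), Ikbkb, Cxcl1, Csf1 and Igfbp7, and by at least 50% of each at 2 (3.55%), Ikbkb and Csf1. Those of the young EC-K4KO libraries overlapped at 5 genes (6.06%) and by 50% at 4 (2.65%). With 1 replicate left out, the genes marked in the remaining library of old WT Cre numbered 10 and 10 (24.5 and 25.6%), those of young EC-K4KO 5 to 34 (10.6 to 67.5%), those in old WT Cre alone 0 to 6 (7.80% at the highest) and those in young EC-K4KO alone 3 to 21 (33.7% at the highest). The highest values came from leaving out Young2 for old WT Cre alone, and Young1 for the young EC-K4KO counts. The log2 difference at Igfbp7 was -0.21 after scaling to the median promoter pileup. A peak absent from a list is no measurement of 0.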
